A study of Mus musculus with 6 samples.

Results

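The calpain system, as taken here, is 9 genes: 7 genes for calpain large subunits (*Capn1*, *Capn2*, *Capn3*, *Capn5*, *Capn7*, *Capn11* and *Capn15*), *Capns1* for the shared small subunit, and *Cast* for the inhibitor calpastatin. They were found by their GENCODE M21 symbols among the 49315 genes of the count tables, and all 9 are among the 16134 genes that passed the filter on low counts, *Capn11* only through its Lpcat3 KOMac libraries. The family was chosen by gene name, but *Capn11* was picked because its near absence in WT cells had been seen. Its difference between genotypes is therefore described below without a test. RNA was sequenced from liver F4/80-positive cells of 3 WT mice and 3 Lpcat3 KOMac mice, with 1 library per mouse, no treatment and an HFD (60% fat) for 16 weeks in every animal. WT mice were *Lpcat3* fl/fl littermates without Cre, and Lpcat3 KOMac mice were *Lpcat3* fl/fl with 1 *LysMCre* allele, which drives Cre from the *Lyz2* locus in myeloid cells. The floxed *Lpcat3* alleles were thus common to all 6 animals, and the background strain was C57BL/6N. The study used males and females, and the labels give neither the sex nor the age of a mouse. Nothing says which animals shared a litter or a cage, so p-values measure the spread between these mice only.

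Calpains are cytosolic cysteine proteases that are switched on by calcium and cut their substrates at a few places rather than degrading them. Classical calpains pair a large catalytic subunit, encoded by *Capn1* or *Capn2*, with the small subunit of *Capns1*, and calpastatin blocks these pairs. In macrophages they act on adhesion and cytoskeletal proteins during spreading and movement, whereas *Capn11* is known mainly as a testis gene in the mouse.

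Total counts per library were between 44954224 and 71392812. *Lpcat3*, the targeted gene, was at 85, 66.2 and 61.2 CPM (counts scaled to library size by the TMM method) in the WT animals numbered 1 to 3. It was at 19.5, 33.3 and 19.4 CPM in the Lpcat3 KOMac animals, so that transcripts remained in every Lpcat3 KOMac library. The preparation carried all 8 Kupffer cell and macrophage markers, which summed to between 25360 and 44270 CPM. The 5 hepatocyte markers summed to 18300 CPM in WT mouse 1 and 12390 CPM in Lpcat3 KOMac mouse 2, against 1918 to 4476 CPM in the other libraries. These are bulk libraries, in which more cells expressing a gene and more of its RNA per cell cannot be told apart.

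*Capn11* (ENSMUSG00000058626) lies on the minus strand of chromosome 17 of GRCm38, from 45630204 to 45659325, with 2708 exonic bases in 23 exon blocks that overlap no other listed gene. The 300 bases around its start (250 before to 50 after) are shown next to those of *Capn2* and *Capns1*, because the latter are members with a single listed start that were well detected in every mouse. The sequences are RefSeq's for GRCm38.p6, written 5′ to 3′ on the strand of the gene, with each CG dinucleotide in capitals. They span chr17:45659260-45659559, chr1:182517561-182517860 and chr7:30195104-30195403, all on the minus strand.
Capn11: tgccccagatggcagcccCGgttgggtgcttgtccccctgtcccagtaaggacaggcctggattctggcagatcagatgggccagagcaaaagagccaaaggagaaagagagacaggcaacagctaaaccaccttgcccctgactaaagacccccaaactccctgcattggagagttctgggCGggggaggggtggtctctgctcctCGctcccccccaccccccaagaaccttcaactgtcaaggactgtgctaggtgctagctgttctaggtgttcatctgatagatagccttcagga
Capn2: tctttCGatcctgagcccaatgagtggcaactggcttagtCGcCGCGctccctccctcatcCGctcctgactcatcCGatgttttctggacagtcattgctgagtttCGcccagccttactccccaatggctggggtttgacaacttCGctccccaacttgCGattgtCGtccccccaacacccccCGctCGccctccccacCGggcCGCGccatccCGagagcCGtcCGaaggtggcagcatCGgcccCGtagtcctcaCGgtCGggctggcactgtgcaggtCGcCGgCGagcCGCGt
Capns1: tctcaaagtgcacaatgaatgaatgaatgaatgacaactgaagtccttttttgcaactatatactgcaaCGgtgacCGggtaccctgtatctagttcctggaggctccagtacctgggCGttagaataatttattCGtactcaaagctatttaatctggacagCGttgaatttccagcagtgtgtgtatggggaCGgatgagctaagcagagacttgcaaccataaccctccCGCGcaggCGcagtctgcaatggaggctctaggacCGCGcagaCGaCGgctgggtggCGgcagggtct
The *Capn11* window holds 3 CG dinucleotides, a ratio of 0.122 to the number its base composition would give, and 16.6% of the 32851 promoter windows in the same table have a ratio as low or lower. The *Capn2* window holds 27 (ratio 0.911) and the *Capns1* window 14 (ratio 0.753), above the median ratio of 0.384 over all windows. The *Capns1* window lies inside the GENCODE span of that gene, since RefSeq gives it a later start. Of the 9 members all but *Capn5* had at least 1 window in the table, and *Capn7*, also with a single window, had a ratio of 0.754. The members with more than 1 window had ratios of 0.138 to 0.486 (*Cast*), 0.153 to 0.384 (*Capn3*), 0.159 to 0.879 (*Capn15*) and 0.521 to 0.579 (*Capn1*). A low ratio was thus not particular to *Capn11* among the members. The motif TATAAA, searched on both strands, was in none of the windows of *Capn11*, *Capn2*, *Capns1* and *Capn7* and is in 13.6% of all windows. GGGCGG, also on both strands, was found once in the *Capn11* window and is in 35.7% of all windows. These counts describe the letters of the windows and not the use of any site.

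*Capn11* had 4, 1 and 7 counts in WT mice 1 to 3, and 154, 45 and 150 counts in Lpcat3 KOMac mice 1 to 3. The WT libraries stood near the floor of detection, taken as 3 counts, and that of WT mouse 2 stood below it. Every Lpcat3 KOMac library was above every WT library. Such a separation in this direction was found for 2.29% of all genes tested, and since it is what *Capn11* was picked for, nothing is read from it here. As TMM-scaled CPM the levels were 0.0616, 0.02 and 0.153 in WT mice and 2.65, 0.868 and 3.19 in Lpcat3 KOMac mice. The mean was 0.0782 ± 0.0681 CPM (SD, n = 3) in WT cells. In Lpcat3 KOMac cells it was 2.24 ± 1.21 CPM (SD, n = 3), or 28.6 times that of WT. Pooled over libraries, 12 WT counts against 349 gave a ratio of rates of 29.8, with an exact 95% interval of 16.8 to 58.2 that covers counting error only. The fitted log2 fold change of Lpcat3 KOMac against WT was 4.83 (standard error 0.83), which ranked 1 from the top among 16134 genes, a place that restates what the gene was picked for. Leaving out single mice gave values from 4.40 (without WT mouse 2) to 5.64 (without WT mouse 3).

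The 3 Lpcat3 KOMac mice were not alike. *Capn11* in mouse 2, at 0.868 CPM (exact 95% Poisson interval 0.633 to 1.16), stood apart from 2.65 CPM (2.25 to 3.11) in mouse 1 and 3.19 CPM (2.7 to 3.74) in mouse 3, and these intervals again cover counting error only. The same mouse kept the most *Lpcat3* among the Lpcat3 KOMac animals, and it had the lowest *Lyz2*, at 1533 CPM against 2452 and 2980 CPM. It was also the Lpcat3 KOMac library richest in hepatocyte markers, while *Adgre1*, which encodes F4/80, was at 1985 CPM in it and at 2322 and 2390 CPM in the others. Between 3 animals no relation among these levels can be tested, and the part of hepatocyte RNA in the *Capn11* level was not tested. Without WT mouse 1 and this mouse, the libraries with the most hepatocyte transcripts, the log2 fold change of *Capn11* was 5.07.

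**Figure D1:**
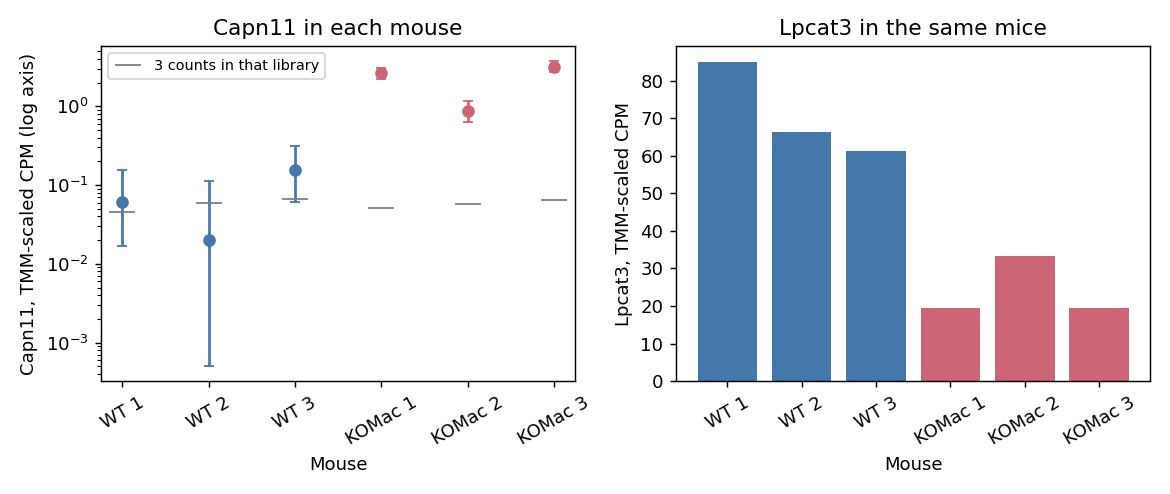
*Capn11* (left, TMM-scaled CPM on a log axis, points with exact 95% Poisson intervals, grey dashes at the level of 3 counts in that library) and *Lpcat3* (right, TMM-scaled CPM, bars from 0) in the 6 mice, with WT in blue and Lpcat3 KOMac in red. The WT points of *Capn11* lie between 0.02 and 0.153 CPM and the Lpcat3 KOMac points between 0.868 and 3.19 CPM, with mouse 2 the lowest of these in *Capn11* and the highest in *Lpcat3*.

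Markers of other cells were read beside *Capn11*. Of 6 male germ cell genes, chosen because *Capn11* is known from testis, the protamine gene *Prm1* and the transition protein gene *Tnp1* had 0 counts in all 6 libraries. *Ddx4* had 25, 30 and 19 counts in WT mice 1 to 3, and 36, 11 and 34 in Lpcat3 KOMac mice 1 to 3. *Sycp3* had 9, 7 and 6 counts in WT mice and 14, 9 and 9 in Lpcat3 KOMac mice. *Acrv1* and *Dazl* had at most 3 counts in any library. The summed CPM of the 6 genes ranged from 0.539 to 0.819 in WT and from 0.444 to 0.978 in Lpcat3 KOMac cells. The germ cell sums of the genotypes overlapped, and the part of such cells in the *Capn11* level was not tested. Skeletal muscle markers summed to at most 1.06 CPM, and cholangiocyte markers to at most 0.926 CPM. Neutrophil markers were low as well, but their sum did separate the genotypes: it was 1.99, 1.96 and 2.95 CPM in WT mice and 4.15, 3.97 and 5.36 CPM in Lpcat3 KOMac mice. Of these 4 markers, 3 were above the floor in at least 1 library, with at most 133 counts. The fourth, *Ly6g*, the defining one, had at most 3 counts in every library. The part of neutrophils in the *Capn11* level was not tested. The summed levels of the Kupffer cell, monocyte, endothelial, stellate and lymphocyte markers overlapped between genotypes.

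Levels of different genes were compared per length, as TMM-scaled RPKM (CPM per kilobase of exonic length). *Capns1* was by far the most abundant of the system, at 118 ± 7.35 RPKM (SD over 6 mice), followed by *Cast* at 29 ± 1.66 RPKM and *Capn1* at 24.8 ± 1.52 RPKM. *Capn7*, an atypical calpain linked to the sorting of membrane proteins at endosomes, was at 17.2 ± 1 RPKM, above *Capn2* at 13.2 ± 1.32 RPKM. *Capn15*, which carries zinc fingers, was at 6.48 ± 0.626 RPKM and *Capn5*, which lacks the calcium-binding domain of classical calpains, at 2.68 ± 0.423 RPKM. In this order, from *Capns1* to *Capn5*, no 2 neighbouring genes had ranges over the 6 mice that overlapped. However, *Capn2* shares 1717 of its 6345 exonic bases, and *Capn15* 1105 of 5729, with a gene on the other strand. The strand setting of the counting is not given. The levels of *Capn2* and *Capn15* per length, and the place of *Capn2* below *Capn7*, are therefore uncertain. *Capn3*, the muscle calpain, was at 0.316 ± 0.0662 RPKM, and its range over 6 mice overlapped that of *Capn11*, which was last in WT at 0.0289 ± 0.0251 RPKM (SD, n = 3) and next to last in Lpcat3 KOMac cells at 0.826 ± 0.448 RPKM (SD, n = 3). The order was the same with counts scaled by library totals alone.

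**Figure D2:**
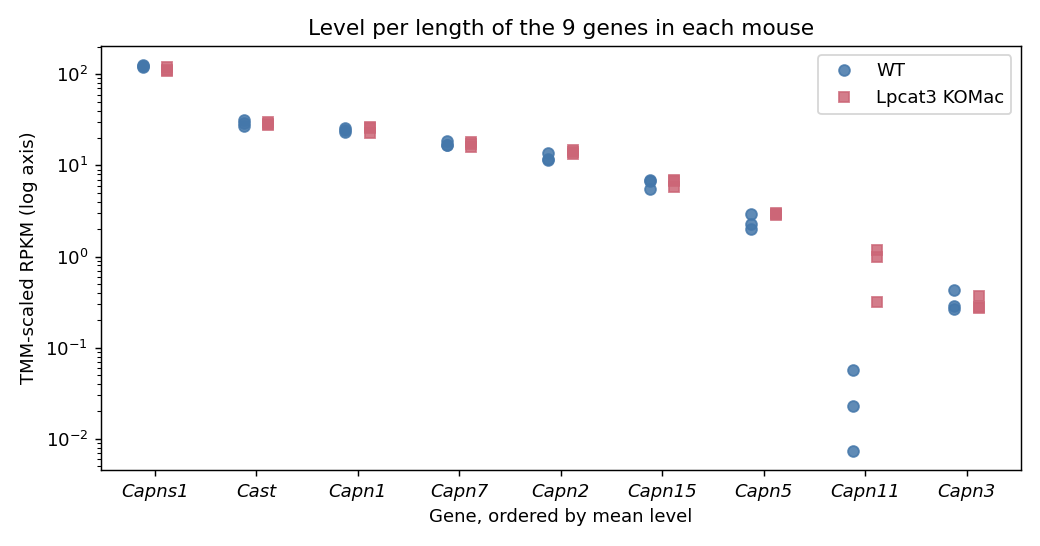
Level of each of the 9 genes in each mouse as TMM-scaled RPKM on a log axis, with WT as blue circles and Lpcat3 KOMac as red squares, genes ordered by their mean over 6 mice. *Capns1* is at the top at 107.7 to 125.8 RPKM, the genotypes lie close together for 8 genes, and *Capn11* has WT values between 0.00737 and 0.0565 RPKM and Lpcat3 KOMac values between 0.32 and 1.18 RPKM.

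Even where *Capn11* was detected it was a small part of the calpain transcripts. Among the 7 large subunit genes, which summed to between 61.7 and 69.5 RPKM per library, it made up 1.51%, 0.49% and 1.69% in Lpcat3 KOMac mice 1 to 3, and at most 0.089% in a WT mouse. *Capn1* and *Capn2* together made up 57% to 60.4% in WT and 55.5% to 61.8% in Lpcat3 KOMac mice. *Capn7* held between 24.1% and 28.4% of the large subunit RPKM over all 6 mice. These shares, and ratios to *Capn1* plus *Capn2*, carry the uncertainty of the *Capn2* level per length. The ratio of *Cast* to *Capn1* plus *Capn2*, in RPKM, was 0.777, 0.839 and 0.752 in WT mice and 0.763, 0.749 and 0.705 in Lpcat3 KOMac mice, so the inhibitor ratios of the genotypes overlapped.

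In the edgeR quasi-likelihood test, 0 of the 8 genes other than *Capn11* had a Benjamini-Hochberg adjusted p-value under 0.05, as did 0 (0%) of the 16134 genes tested. *Lpcat3* and *Lyz2*, which the study counted among its differentially expressed genes, were thus not called either. Their log2 fold changes were -1.56 and -1.42, with unadjusted edgeR p-values of 0.00119 and 0.00351. A count of 0 called is therefore not read as an absence of change. At an unadjusted p-value under 0.05, edgeR found 0 of the 8 in the reported fit, against 426 of all genes (2.64%). Limma-voom called 0 genes after adjustment. The 426 moved with single libraries: edgeR found 2028, 227 and 543 without WT mouse 1, 2 or 3, and 179, 245 and 382 without Lpcat3 KOMac mouse 1, 2 or 3. The 0 of 8 is given for the reported fit only. The log2 fold change of *Capn2* was 0.29 (standard error, SE, 0.08) with totals alone and 0.28 (SE 0.08) without WT mouse 1. It was 0.15 (SE 0.11) without WT mouse 2. That of *Capn5* was 0.45 (SE 0.13) without WT mouse 3 and 0.36 (SE 0.12) with hepatocyte transcripts as a covariate. It was 0.17 (SE 0.15) without WT mouse 1. DESeq2 called 12 genes (0.0744%), with 0 of the 8 among them. The median log2 fold change of the 8 genes was -0.01, beside -0.04 over all genes tested.

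The classical large subunits came first. *Capn1* (ENSMUSG00000024942, chromosome 19, 5988546 to 6015825) was at 75, 83.2 and 77.8 CPM in WT mice and at 72, 81.7 and 84.1 CPM in Lpcat3 KOMac mice. The genotypes overlapped fully, with a log2 fold change of 0.01 and a 95% interval of -0.22 to 0.24. *Capn2* (ENSMUSG00000026509, chromosome 1, 182467260 to 182517608) was at 87.1, 73 and 74.7 CPM in WT mice and at 85.2, 93.9 and 89.9 CPM in Lpcat3 KOMac mice. Only WT mouse 1 among the WT mice reached the Lpcat3 KOMac range. The libraries rich in hepatocyte markers were that of WT mouse 1 and that of Lpcat3 KOMac mouse 2, the highest in *Capn2*. The part of hepatocyte RNA in the *Capn2* level was not tested. For *Capn2* edgeR gave a log2 fold change of 0.20 (95% interval -0.04 to 0.44, standard error 0.1), with an adjusted p that rounds to 1, and the exact permutation test gave a two-sided p = 0.2. With totals alone as the scale, all Lpcat3 KOMac values of *Capn2* lay above all WT values. On that scale the median log2 fold change over all genes was 0.06, beside -0.04 with TMM. The share of all genes separated on it was not counted, so nothing is read from this separation.

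*Capns1* (ENSMUSG00000001794, chromosome 7, 30186936 to 30198811), whose small subunit stabilizes both classical calpains, was at 301, 312 and 309 CPM in WT mice and at 276, 267 and 297 CPM in Lpcat3 KOMac mice. It was the 1 gene of the 8 whose groups did not overlap, lower in every Lpcat3 KOMac mouse, a separation found for 5.2% of all genes tested in that direction. *Capns1* averaged 307 ± 5.49 CPM in WT and 280 ± 15.7 CPM in Lpcat3 KOMac cells (SD, n = 3 each). In edgeR its log2 fold change was -0.13 (95% interval -0.33 to 0.06, standard error 0.08), and the adjusted p was 1. The two-sided exact permutation p was 0.1, below which a design of this size cannot go. The separation did not hold with totals alone as the scale, where *Capns1* was at 274 to 314 CPM in WT and 273 to 306 CPM in Lpcat3 KOMac cells. The ratio of *Capns1* to *Capn1* plus *Capn2* in RPKM does not depend on that scale. It was 3.26, 3.35 and 3.44 in WT mice and 3.09, 2.67 and 2.96 in Lpcat3 KOMac mice, so every Lpcat3 KOMac ratio was below every WT ratio. This ratio was formed after the levels had been seen and is given without a test. The share of such ratios of other genes that separate the genotypes was not counted, so nothing is read from it. *Capns1* has 2477 exonic bases and *Capn2* 6345, and over all tested genes the log2 fold change had a Spearman correlation of 0.192 with exonic length, where genes are not independent. With an offset for exonic length the log2 fold changes were -0.09 for *Capns1* and 0.18 for *Capn2*.

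*Cast* (ENSMUSG00000021585, chromosome 13, 74694286 to 74807921) was at 83.8, 91.2 and 78.7 CPM in WT mice and at 79.4, 87.6 and 82.8 CPM in Lpcat3 KOMac mice. The mice of the genotypes were interleaved, with a log2 fold change of -0.02 and a 95% interval of -0.24 to 0.19. The direction of so small a value changed with totals alone, to 0.07.

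Of the remaining large subunits, *Capn5* (ENSMUSG00000035547, chromosome 7, 98121559 to 98178274) was at 11, 12.6 and 16.2 CPM in WT mice and at 16, 15.7 and 16.7 CPM in Lpcat3 KOMac mice. WT mice 1 and 2 were below all others and WT mouse 3 was within the Lpcat3 KOMac range. For *Capn5* edgeR gave a log2 fold change of 0.28 (95% interval -0.12 to 0.69, standard error 0.16) and an adjusted p of 1, and the fold change was 0.17 to 0.45 on leaving out single mice. *Capn7* (ENSMUSG00000021893, chromosome 14, 31336638 to 31371986) ranged from 78.5 to 88 CPM in WT and from 74.5 to 84.6 CPM in Lpcat3 KOMac mice. Its log2 fold change was -0.03, with a 95% interval of -0.25 to 0.19, and 0.06 with totals alone. *Capn7* shares 116 exonic bases with *Sh3bp5* on the other strand, a gene of at least 11669 counts per library. *Capn15* (ENSMUSG00000037326, chromosome 17, 25958364 to 25985796) ranged from 31.9 to 40 CPM in WT and from 33.4 to 40.2 CPM in Lpcat3 KOMac mice, a log2 fold change of 0.02 with a 95% interval of -0.29 to 0.33. *Capn3* (ENSMUSG00000079110, chromosome 2, 120456019 to 120504913) had 72 to 98 counts per library, or 1.64 ± 0.444 CPM in WT and 1.54 ± 0.269 CPM in Lpcat3 KOMac cells (SD, n = 3 each). The log2 fold change of *Capn3* was -0.09, with a wide 95% interval of -0.81 to 0.63. It shares 386 exonic bases with *Ganc* on the same strand, which had at least 2518 counts per library, so the low level of *Capn3* is uncertain.

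**Figure D3:**
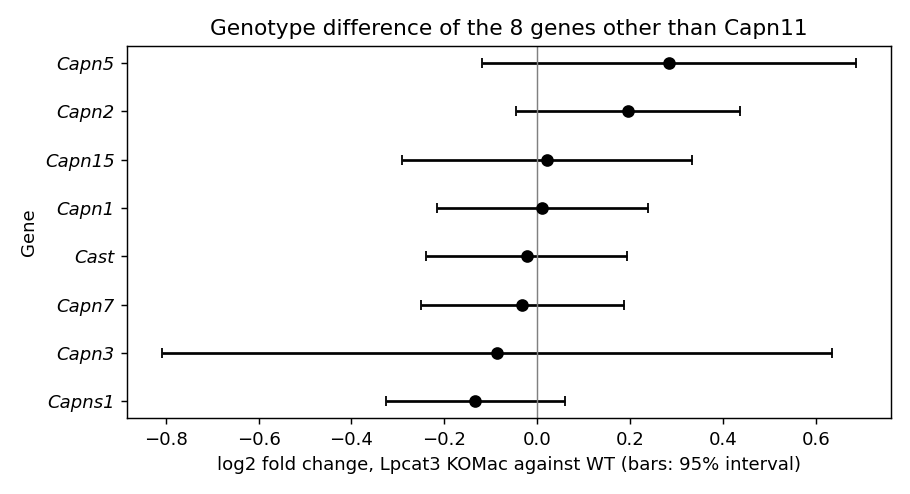
Log2 fold change of Lpcat3 KOMac against WT (points) with 95% intervals from edgeR (bars) for the 8 genes other than *Capn11*, 3 mice per genotype. Every interval includes 0, from *Capns1* at -0.13 to *Capn5* at 0.28, and that of *Capn3* is the widest.

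The 7 calpain genes outside the set were examined too. *Capn9*, *Capn12* and *Capn13* had at most 5 counts in any library, and *Capn6* at most 29, so that 3 of the 7 passed the filter and 0 of these were called by edgeR. *Capn10* was at 11.2, 7.49 and 8.57 CPM in WT mice and at 8.56, 12 and 8.9 CPM in Lpcat3 KOMac mice, a log2 fold change of 0.11 (standard error 0.22). *Capn8*, a calpain of the stomach, went from 179 counts in WT mouse 1 to 1 count in WT mouse 3, and from 58 to 11 counts in Lpcat3 KOMac mice. Its log2 fold change was -0.83 (SE 1.31). *Capns2*, the second small subunit gene, had 7 to 49 counts in WT and 20 to 41 in Lpcat3 KOMac mice, a log2 fold change of 0.20 (standard error 0.79). For each of these 3 genes the ranges of WT and Lpcat3 KOMac mice overlapped.

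Transcript levels do not measure calpain activity or the cutting of substrate proteins. The 27 genes for known calpain substrates were all tested, and 0 were called in either direction by edgeR. Their median log2 fold change was -0.05, with 12 above 0 and 15 below. The 1 gene of 27 with an unadjusted p-value under 0.05 (2.64% of all genes tested), and the 1 with groups that did not overlap (5.2% of all genes in that direction), was *Nfkbia*, which encodes an inhibitor of NF-kappaB. It was at 239, 290 and 264 CPM in WT mice and at 208, 143 and 181 CPM in Lpcat3 KOMac mice, lower in each of the latter. Its edgeR log2 fold change was -0.58 (SE 0.16), and the adjusted p was 1. The cytoskeletal genes *Vcl* and *Sptbn1* were at 0.49 (standard error 0.42) and 0.25 (standard error 0.26) on the log2 scale, and their groups overlapped.  Of 19 genes for calcium channels, pumps and calmodulins, 0 were called by edgeR and the median log2 fold change was -0.06, with 8 above 0 and 11 below. *Atp2b4*, a pump that moves calcium out of the cell, was the 1 gene of 19 with an unadjusted p-value under 0.05, and the 1 with groups that did not overlap, beside 2.64% and, in its direction, 2.29% of all genes tested. Beside these shares, 1 gene in a list is not read as a result about the list. It was at 7.85, 5.89 and 9.67 CPM in WT mice and at 17.2, 15.2 and 10.3 CPM in Lpcat3 KOMac mice, which lay above all WT mice. Its edgeR log2 fold change was 0.87 (SE 0.27), and the adjusted p was 1. *Atp2a3*, *Piezo1* and *Orai2* followed in size, at 0.27, 0.26 and -0.23 on the log2 scale, with overlapping groups. Both lists thus stood close to the median of all genes.

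To describe the region around *Capn11*, the 19 other genes within 250000 bases of it were read, of which 11 were tested and 0 called by edgeR. In log2 fold change 10 of the 11 were below 0, and the range was -0.37 to 0.07 around a median of -0.21, and over all 16134 genes tested 9668 were below 0. The nearest tested genes upstream, named here for their position after their values were seen, were *Tmem63b* and *Gm16172* on the opposite strand within it, at -0.01 (standard error 0.16) and 0.07 (standard error 0.34). *Slc29a1*, a nucleoside transporter, was at 450, 419 and 396 CPM in WT mice and at 361, 377 and 360 CPM in Lpcat3 KOMac mice, every one of the latter lower. It had the smallest unadjusted p-value of the 11, 0.0496 in edgeR (adjusted p = 1), at a log2 fold change of -0.21 (SE 0.08). *B230354K17Rik*, also picked out after its values were seen, was the other neighbour lower in every Lpcat3 KOMac mouse, at -0.22 (SE 0.11), which makes 2 of 11 beside 5.2% of all genes tested. *Gm17080*, *Mrpl14* and *Nfkbie*, the largest differences, were at -0.37, -0.28 and -0.26 on the log2 scale with overlapping groups. The 8 untested neighbours had at most 4 counts in any library. A regional part in the *Capn11* level was not tested.

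**Figure D4:**
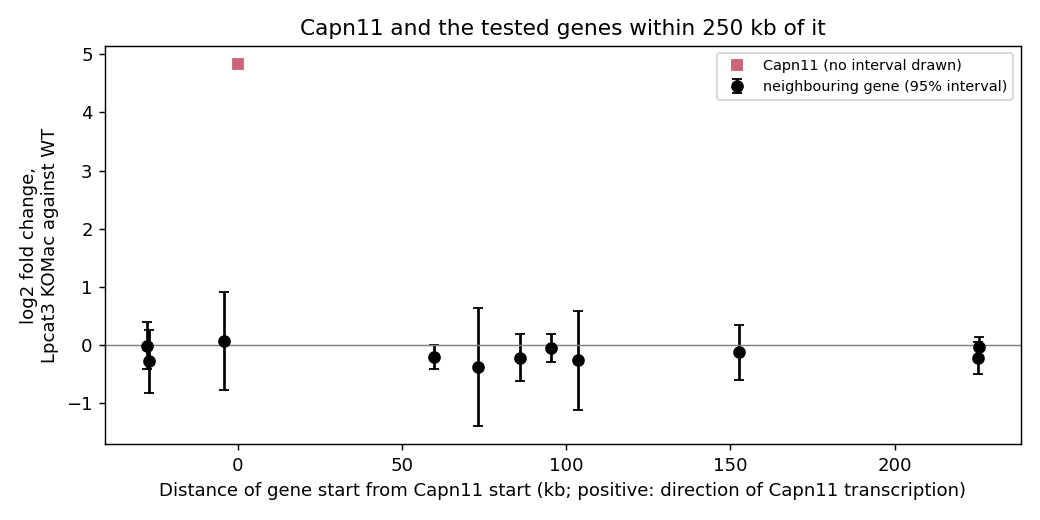
Log2 fold change of Lpcat3 KOMac against WT for *Capn11* (red square, no interval drawn) and the 11 tested genes within 250 kb of it (black, with 95% intervals from edgeR), placed by the distance of each gene's start from that of *Capn11* in kb, positive in the direction of *Capn11* transcription. The neighbours lie between -0.37 and 0.07 and *Capn11* at 4.83.

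By the root mean square difference of centred log2 CPM over the 6 libraries, the genes whose pattern was most like that of *Capn11* were *Trim29* (1.26), *Clec2g* (1.26), *Cfap69* (1.34), *Emp1* (1.41), *Itgad* (1.44) and *Ankdd1a* (1.46). The median of this measure over all tested genes was 2.29, and *Capn11* itself varied by 2.27 around its own mean. *Trim29* was at 0.323, 0.0799 and 0.94 CPM in WT mice and at 1.62, 0.675 and 1.74 CPM in Lpcat3 KOMac mice. *Emp1*, a membrane protein gene at a higher level, was at 5.34, 1.4 and 8.81 CPM and at 17, 9.76 and 12.9 CPM. Among Lpcat3 KOMac mice, *Trim29*, *Emp1* and *Ankdd1a* were lowest in mouse 2, like *Capn11*, whereas *Clec2g*, *Cfap69* and *Itgad* were not. In Lpcat3 KOMac mice 1 to 3, *Clec2g* was at 0.362, 0.829 and 2.1 CPM and *Cfap69* at 0.689, 1.06 and 0.765 CPM. *Itgad* was at 1.03, 4.24 and 12.8 CPM in them. These 6 genes were picked for their likeness to *Capn11* in the same libraries, so higher levels in Lpcat3 KOMac cells were built into the choice, and nothing is read from their differences. Except for *Emp1* and *Itgad*, these genes had fewer than 100 counts in every library, and none of the 6 lies on chromosome 17.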

How the data were processed

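RNA of F4/80-positive liver cells from 3 WT and 3 Lpcat3 KOMac mice was sequenced after poly-A selection. The authors deposited raw read counts per Ensembl gene, 1 table per mouse. Their processing notes list Trimmomatic 0.36, STAR 2.5.2b and featureCounts of Subread 1.5.2 with GRCm38. The strand setting and the treatment of reads matching several places are not given in the sources used here, so genes that overlap others are uncertain. Of 49315 gene identifiers, 48970 were in GENCODE M21.

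EdgeR 4.0.16 (R 4.3.3) was run on these counts after filterByExpr (minimum count 10) and TMM scaling. Its robust quasi-likelihood test had genotype as its sole factor, with Benjamini-Hochberg adjustment over 16134 genes and a threshold of 0.05. Intervals are 95%. Log2 CPM used a prior count of 2. Alternatives included DESeq2 1.42.0 and limma-voom (limma 3.58.1). Exact permutation tests were two-sided. The tests were tested on simulated data. The simulated libraries had less spread between them than these data, so the power of the tests here was not measured. No library was a copy of another (chi-square per degree of freedom 40.7 or more).

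The members and gene lists were chosen with earlier results of these data known. Named were all members, genes of the other lists with an unadjusted p-value under 0.05 and otherwise the 3 largest differences, and the 6 genes most like *Capn11*. One gene under this rule is not reported here. Nothing says that the mice were paired. Other measurements of the study were not analysed here.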

Additional observations from a re-analysis of the deposited data

How the results depend on the processing

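Across 17 alternatives 0 of the 8 genes other than *Capn11* were called, and the number of all genes called was 0 except with DESeq2, which called 12. The number at an unadjusted p below 0.05 was 179 to 2028 on leaving out single mice, 1767 without both hepatocyte-rich libraries and 1483 with hepatocyte transcripts as a covariate. The exonic length offset and the removal of both hepatocyte-rich libraries together were chosen after seeing the data. The log2 fold change of *Capn11* was between 4.40 and 5.64 in the 16 alternatives that could give it, and with at least 10 counts required in every library it was not tested. *Capn2*, *Capn5* and *Capns1* kept their directions in all 17. With the replicate number as a block edgeR called 0 genes, and 138 had an unadjusted p below 0.05, where the reported fit had 426, and in this replicate block fit *Capn11* was at 4.93, *Capn2* at 0.20 and *Capns1* at -0.14. Same-numbered mice correlated at -0.303, -0.596 and 0.36 in their deviations from the genotype means, so the numbers were not taken as pairs. Directions that reversed were all of values close to 0. They were those of *Capn7* (0.062) and *Cast* (0.072) with total counts alone, *Cast* with the length offset (0.012), *Capn3* with the hepatocyte covariate (0.0054) and *Capn1* without the hepatocyte-rich libraries (-0.043). On leaving out single mice, *Capn1* ranged from -0.021 to 0.114, *Capn3* from -0.22 to 0.15, *Capn7* from -0.063 to 0.037, *Capn15* from -0.072 to 0.12 and *Cast* from -0.072 to 0.048. With total counts alone the median over all genes was 0.06, beside -0.04 in the reported fit. The cause of these reversals was not tested. Precision for *Capn11* in WT cells is limited by its 12 counts in all.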
